A study of Mus musculus with 10 samples.

Results

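The genes described here are 29 genes of sterol and fatty acid synthesis, chosen by name for their place in the pathway and not by their values, among 20660 gene symbols measured on 10 microarrays of the mouse cell line EML-C1. A gene was tested where its probe stood well above background on at least 2 arrays, which 28 of the 29 genes and 14204 of all symbols did. Scd1, a desaturase that puts the first double bond into saturated fatty acids, was not well above background on any of the 10 arrays and has no level here.

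EML-C1 is an immortalised line of blood progenitor cells that grows on stem cell factor and can be led toward red cells by erythropoietin (EPO), and toward myeloid cells by interleukin-3 (IL-3), all-trans retinoic acid (ATRA) and granulocyte-macrophage colony-stimulating factor (GM-CSF). The study compared untreated cells at day 0 with 3 treatments at day 3 and day 6. EPO was given at 10 ng/ml. The treatment called IL-3/GM-CSF consisted of 10 ng/ml IL-3 with 10 µM ATRA from day 0 and of 10 ng/ml GM-CSF after day 3, so its day 3 cells had seen no GM-CSF. The combined treatment held both sets of factors. At day 3 each culture was divided into Sca1-low and Sca1-high cells by the surface antigen Sca1, which marks blood stem and progenitor cells, and the day 6 arrays carry no Sca1 label. All cultures contained horse serum, which brings cholesterol and fatty acids of its own, and the share of conditioned medium was lowered after day 3 in all treated cultures. There is 1 array per condition and all arrays come from 1 cell line, so a p-value measures the spread between conditions under an additive model and not between cultures. Fewer cells of a type and less RNA per cell cannot be told apart in such bulk samples.

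Cholesterol is built from acetyl-CoA in a chain of steps that leads through mevalonate and the isoprenoids to squalene, then to lanosterol, and then through demethylation, reduction and isomerisation to cholesterol. Fatty acid synthesis takes its acetyl-CoA from citrate and shares its main transcription factors, the SREBP proteins, with the sterol pathway. SREBP precursors are held in the endoplasmic reticulum by Insig proteins when sterols are plentiful and are carried by Scap to the Golgi for cleavage when sterols are scarce. Liver X receptors (LXR), which pair with retinoid X receptors, answer to oxidised sterols and turn on genes for sterol export and, through Srebf1, for fatty acid synthesis. In blood progenitors, export of cholesterol by the pumps Abca1 and Abcg1 is known to restrain proliferation.

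Promoter windows from RefSeq (GRCm38.p6; 250 bases before to 50 after a gene's start, 300 in all) are given for 3 genes to show the sequence that surrounds the starts of sterol genes. Hmgcs1 was the only one of the 23 genes with a window in which the core of a sterol regulatory element was found. Idi1 and Lss were chosen after their values were seen, as genes of the mevalonate and lanosterol steps with large ranges. All 3 lie on the plus strand, at chr13:119690101-119690400, chr13:8885356-8885655 and chr10:76531355-76531654. Capitals mark matches, on either strand, to TCACNCCAC (the sterol regulatory element core), CACGTG (the E-box), CCAAT (the NF-Y box) and GGGCGG (the GC box). On the reverse strand CCAAT reads ATTGG and GGGCGG reads CCGCCC, and no matches overlap in these windows.
Hmgcs1: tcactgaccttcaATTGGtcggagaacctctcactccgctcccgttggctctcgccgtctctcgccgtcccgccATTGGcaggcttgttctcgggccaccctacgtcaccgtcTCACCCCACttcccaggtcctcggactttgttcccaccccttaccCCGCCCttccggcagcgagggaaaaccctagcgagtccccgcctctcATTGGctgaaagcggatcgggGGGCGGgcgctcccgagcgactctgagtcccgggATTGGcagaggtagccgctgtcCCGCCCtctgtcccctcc
Idi1: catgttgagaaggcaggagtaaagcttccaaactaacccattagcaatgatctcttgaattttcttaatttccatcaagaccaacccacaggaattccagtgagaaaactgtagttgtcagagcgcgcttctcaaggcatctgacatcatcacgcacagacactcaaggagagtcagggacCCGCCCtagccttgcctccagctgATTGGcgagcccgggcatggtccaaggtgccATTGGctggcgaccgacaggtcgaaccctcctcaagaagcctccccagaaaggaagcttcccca
Lss: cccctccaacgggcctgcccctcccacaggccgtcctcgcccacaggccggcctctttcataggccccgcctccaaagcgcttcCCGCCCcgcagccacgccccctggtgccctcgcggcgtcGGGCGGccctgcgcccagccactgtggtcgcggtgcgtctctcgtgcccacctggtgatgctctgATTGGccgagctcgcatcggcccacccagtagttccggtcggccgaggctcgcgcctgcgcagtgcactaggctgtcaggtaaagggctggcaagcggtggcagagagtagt

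Of the 29 genes 23 had a RefSeq window, 31 windows in all. Fdps, Fdft1, Sqle, Stard4, Scd1 and Scd2 had none. The element core was found in 1 of the 31 windows (3.23%) and in 1.24% of all 32851 windows. CCAAT was found in 67.7% of the genes' windows against 37.4% of all windows, GGGCGG in 77.4% against 35.7%, and CACGTG in 19.4% against 7.15%. These shares describe letters in a short window, some genes have several windows, and no test was made.

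Levels are log2 values relative to the 75th percentile of the array's signal, so that a difference of 1 is 2-fold, and values are compared between arrays for 1 probe and never between genes. Signals at that percentile ranged from 309 on the EPO Sca1-low array to 736 on the untreated array, and between 78.4% (EPO day 6) and 94.9% of tested genes were well above background. The SD of probes spotted 10 times was between 0.044 and 0.088 on the log2 scale. The scanner software's quality result was "evaluate" for all 3 Sca1-low arrays and for the EPO and combined Sca1-high arrays. It was "in range" for the other arrays. The arrays lay on 3 slides. The day 3 Sca1-low and Sca1-high arrays of a treatment always shared a slide, as did the EPO and IL-3/GM-CSF day 3 arrays, and the untreated array shared its slide with the EPO and combined day 6 arrays. The labelled fractions matched their marker: Ly6a, which encodes Sca1, lay between -4.25 and -2.80 in the 3 Sca1-low fractions and between 1.89 and 4.76 in the 3 Sca1-high fractions.

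Pmvk, Idi1 and Fdft1 were highest in Sca1-low cells and in EPO cells at day 6, a grouping read from the values and not compared with all genes. Lss was lowest in myeloid cells at day 6. Acaca, by its brightest probe, and Scd2 were higher in every culture with IL-3 and ATRA. In none of the 8 comparisons did any of the 28 tested genes pass the threshold, an adjusted p below 0.05 over all 14204 genes (limma with Benjamini-Hochberg adjustment). Of all genes, 11.1% were called in the comparison of Sca1-low with Sca1-high cells (581 higher and 992 lower). That total of 1573 was 2305 without the EPO pair of arrays, 464 without the combined pair and 0 without the IL-3/GM-CSF pair, so every call given here for that comparison is lost without the last. The share was 0% for EPO against untreated cells, 0% for IL-3/GM-CSF against untreated cells, 0% for the combined treatment against untreated cells, 0% for the combined treatment against IL-3/GM-CSF and 0% for day 6 against day 3. It was 0.00704% (1 gene) for EPO against IL-3/GM-CSF and 0.00704% (1 gene) for the combined treatment against EPO. With slide as a block, the calls over all genes became 1041 (EPO), 293 (IL-3/GM-CSF) and 63 (combined) against untreated cells, 865 for the combined treatment against EPO and 655 for day 6 against day 3, while those among the 28 genes stayed at 0. For day 6 against day 3 they were 789 of all genes and 1 of the 28 without the EPO day 6 array. At an unadjusted p below 0.05, limma gave 3, 3, 3, 2, 9, 0, 9 and 4 of the 28 genes in the order Sca1-low against Sca1-high, EPO, IL-3/GM-CSF and combined against untreated, EPO against IL-3/GM-CSF, combined against IL-3/GM-CSF, combined against EPO, and day 6 against day 3. Over all genes it gave 4398, 1494, 960, 674, 2683, 261, 3355 and 1368 in the same order.

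**Figure D1:**
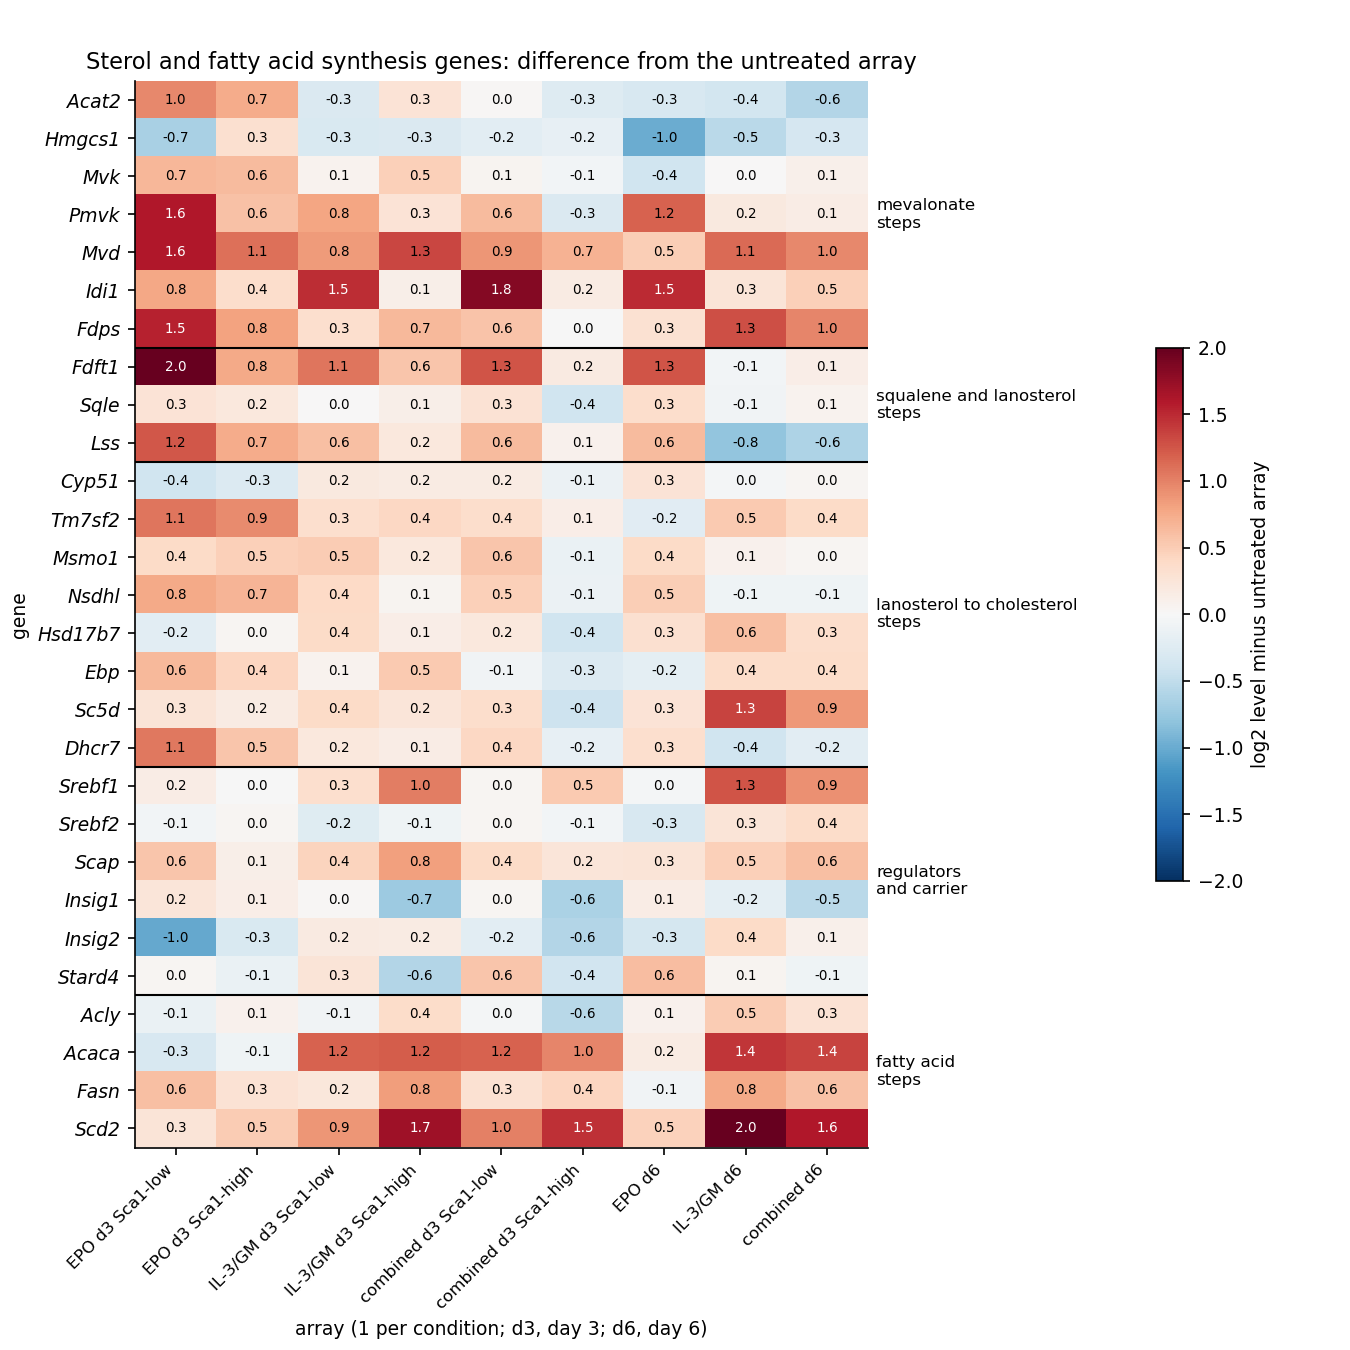
Difference in log2 level between each of 9 arrays (columns) and the untreated array for the 28 tested genes (rows, in the order of the pathway; red above untreated, blue below, numbers to 1 decimal). Strong red appears in mevalonate and squalene rows of EPO Sca1-low cells, in the row of Idi1 (1.83 in combined Sca1-low and 1.47 in IL-3/GM-CSF Sca1-low cells, with EPO day 6 between them), and along the rows of Acaca and Scd2 in every column with IL-3 and ATRA.

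Against the untreated array, the genes at least 2-fold apart were nearly all higher. EPO Sca1-low cells had 7 of 28 genes at least 2-fold higher (18.5% of all genes were) and 1 lower (17.8% of all genes). The 7 were Pmvk, Mvd, Fdps, Fdft1, Lss, Tm7sf2 and Dhcr7, and the lower one was Insig2. EPO Sca1-high cells had only Mvd higher and none lower, where 3.65% of all genes were higher and 1.86% lower. IL-3/GM-CSF Sca1-low cells had 3 genes higher (Acaca, Fdft1 and Idi1; 7.9% of all genes) and 0 lower (10.6%). IL-3/GM-CSF Sca1-high cells had 4 higher (Acaca, Mvd, Scd2 and Srebf1; 9.72%) and 0 lower (6.43%). With the combined treatment, Sca1-low cells had 4 higher (Acaca, Fdft1, Idi1 and Scd2; 10.2%) and 0 lower (11.8%), and Sca1-high cells had only Scd2 higher (8.7%) and 0 lower (6.5%). At day 6 EPO cells had 3 higher (Fdft1, Idi1 and Pmvk; 11.6%) and 0 lower (14.9%), IL-3/GM-CSF cells 6 higher (Acaca, Fdps, Mvd, Sc5d, Scd2 and Srebf1; 9.91%) and 0 lower (9.59%), and combined cells 2 higher (Acaca and Scd2; 8.42%) and 0 lower (6.3%). All 9 differences share the 1 untreated array, so they are not independent of each other. The median of the 28 genes ranged from -0.11 (combined Sca1-high) to 0.47 (EPO Sca1-low), while the median of all genes on these arrays was -0.19 and 0.18.

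The mevalonate steps turn acetyl-CoA into farnesyl diphosphate, the last common precursor of sterols and other isoprenoids. Idi1, the isomerase that interconverts the 5-carbon building blocks, had a level of 4.02 in untreated cells. It was 4.79 and 4.37 in Sca1-low and Sca1-high cells with EPO, 5.49 and 4.13 with IL-3/GM-CSF, 5.85 and 4.19 with the combined treatment, and at day 6 it was 5.52 with EPO, 4.27 with IL-3/GM-CSF and 4.50 with both. The 3 Sca1-low arrays and the EPO day 6 array lay above the other 6. This grouping was read from the values themselves, and its share among all genes was not counted. Pmvk, which adds the second phosphate to mevalonate, was at 4.03 untreated, at 5.63 and 4.62 in the EPO fractions, 4.81 and 4.31 in the IL-3/GM-CSF fractions, 4.67 and 3.74 in the combined fractions, and at 5.21, 4.23 and 4.17 at day 6, in the same order. Its highest values were both from EPO cultures, in Sca1-low cells and at day 6, and a second Pmvk probe followed the first across the 10 arrays (r = 0.97, a description over arrays that share their cell line).

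Mvd, which decarboxylates mevalonate diphosphate, was lowest on the untreated array at 0.75 and reached 2.35 and 1.84 in the EPO fractions, 1.59 and 2.08 in the IL-3/GM-CSF fractions, 1.64 and 1.44 in the combined fractions, and 1.25, 1.87 and 1.71 at day 6. All 9 treated arrays lay above the single untreated one, and the share of all genes that did so was not counted. With slide as a block, the Mvd difference of IL-3/GM-CSF from untreated cells turned to -0.47. Fdps, the synthase of farnesyl diphosphate, was at 5.73 untreated, 7.27 and 6.54 with EPO, 6.07 and 6.38 with IL-3/GM-CSF, 6.29 and 5.72 with the combined treatment, and 6.03, 7.01 and 6.70 at day 6. Its highest arrays, EPO Sca1-low and IL-3/GM-CSF day 6, come from opposite lineages. Acat2, the thiolase at the head of the pathway, was at -0.33 untreated, 0.63 and 0.41 with EPO, -0.62 and -0.07 with IL-3/GM-CSF, -0.31 and -0.59 with the combined treatment, and -0.66, -0.70 and -0.93 at day 6. Only the EPO fractions of day 3 lay above 0 for this gene, and mouse Acat2 has a close neighbouring copy, Acat3, so that its probe may read both.

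Hmgcs1, the synthase that commits acetyl units to the pathway and the gene whose promoter window held the element core, ran from 4.13 (EPO day 6) to 5.45 (EPO Sca1-high). Mvk, mevalonate kinase, ran from 3.08 (EPO day 6) to 4.13 (EPO Sca1-low). In EPO cells several genes were lower at day 6 than in both day 3 fractions. Compared with Sca1-low cells, 5 genes were at least 2-fold lower (Acat2, Mvk, Mvd, Fdps and Tm7sf2; 8.18% of all genes) and 0 higher (5.27%). Compared with Sca1-high cells, 4 were lower (Acat2, Hmgcs1, Mvk and Tm7sf2; 16% of all genes) and 1 was higher (Idi1; 11.5%). Acat2, Mvk and Tm7sf2 were lower by both measures, with folds of 2.44 and 2.09, 2.08 and 2.04, and 2.46 and 2.25. The EPO day 6 array lay on another slide than the day 3 arrays, so that slide and day cannot be told apart in these values.

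The next steps lead from farnesyl diphosphate over squalene to lanosterol, the first sterol of the chain. Fdft1, squalene synthase, had the largest range of the 28 genes, 2.07. Its level was 2.16 untreated, 4.18 and 2.93 in EPO Sca1-low and Sca1-high cells, 3.24 and 2.72 with IL-3/GM-CSF, 3.42 and 2.34 with the combined treatment, and 3.42, 2.11 and 2.29 at day 6. The 3 Sca1-low arrays and EPO day 6 were the 4 highest, as for Idi1, again a grouping read from the values. A second Fdft1 probe was well above background on the untreated array alone.

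Lss, the cyclase that makes lanosterol, was at 1.34 untreated, 2.58 and 2.08 with EPO, 1.95 and 1.55 with IL-3/GM-CSF, 1.97 and 1.43 with the combined treatment, and 1.97, 0.55 and 0.72 at day 6. The lowest arrays were the day 6 cultures with IL-3 and GM-CSF, alone and with EPO, and the EPO day 6 array was 2.67-fold above IL-3/GM-CSF at day 6. Sqle, the squalene epoxidase, stayed between 4.93 and 5.68.

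The steps from lanosterol to cholesterol were measured through 8 genes. Sc5d, which adds a double bond to the sterol ring, was at 1.93 untreated, 2.19 and 2.08 with EPO, 2.30 and 2.17 with IL-3/GM-CSF, 2.27 and 1.51 with the combined treatment, and 2.20, 3.27 and 2.79 at day 6. It was highest where Lss was lowest, in the 2 day 6 cultures with IL-3 and GM-CSF. Dhcr7, which makes cholesterol from 7-dehydrocholesterol, was at 0.46 untreated, 1.51 and 1.01 with EPO, 0.67 and 0.60 with IL-3/GM-CSF, 0.88 and 0.30 with the combined treatment, and 0.80, 0.06 and 0.25 at day 6. Its order resembled that of Lss, with EPO Sca1-low at the top and IL-3/GM-CSF day 6 at the bottom. The other 6 genes of these steps (Cyp51, Tm7sf2, Msmo1, Nsdhl, Hsd17b7 and Ebp) had ranges from 0.67 for Cyp51, the lanosterol demethylase, to 1.30 for Tm7sf2, a sterol reductase that was highest in the EPO fractions of day 3 (2.54 and 2.41) and lowest in EPO cells at day 6 (1.24).

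**Figure D2:**
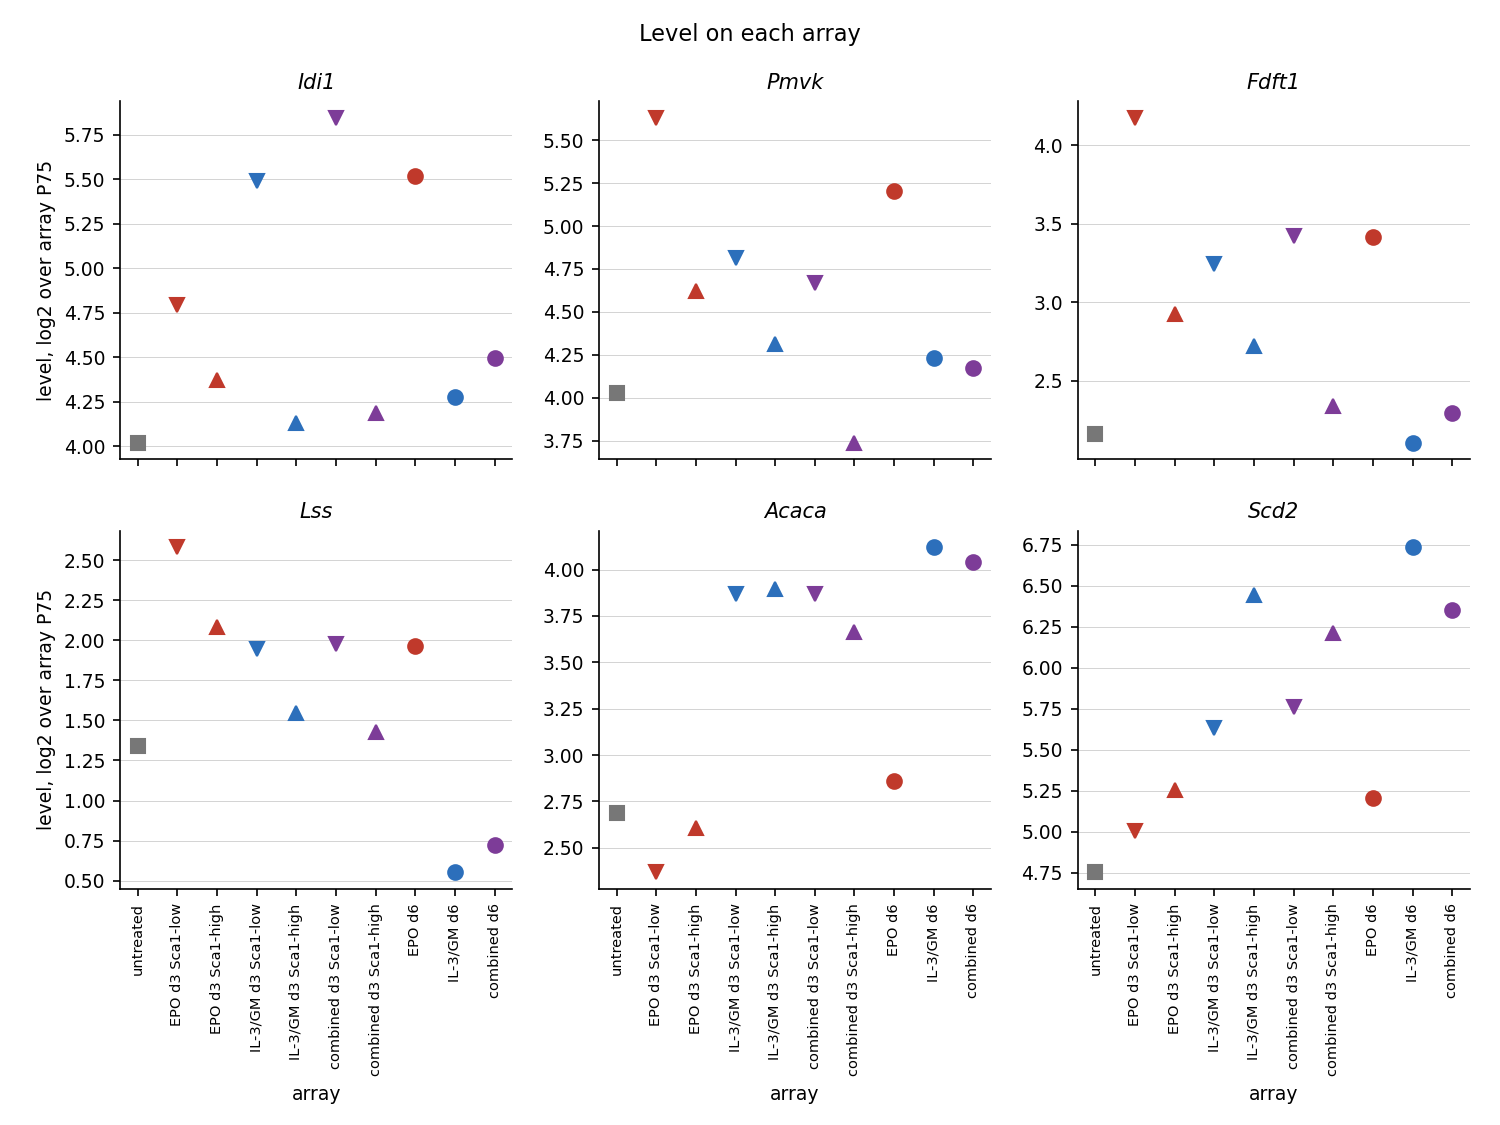
Level (log2 over the array's 75th percentile, vertical axis, with its own scale for each gene) of 6 genes on each of the 10 arrays (horizontal axis). Grey square, untreated; red, EPO; blue, IL-3/GM-CSF; purple, combined; downward triangle, Sca1-low; upward triangle, Sca1-high; circle, day 6. Idi1 and Fdft1 have the 3 Sca1-low arrays and EPO day 6 on top, while Acaca and Scd2 have all blue and purple points above all others.

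The 5 regulators and the carrier Stard4 had ranges between 0.68 (Srebf2) and 1.40 (Insig2). Srebf1, which encodes the SREBP form that favours fatty acid genes, ran from -2.64 to -1.36 and was at least 2-fold above untreated in IL-3/GM-CSF Sca1-high cells and IL-3/GM-CSF cells at day 6. Srebf2, whose product drives the sterol genes, ran from 1.20 to 1.88 by its brighter probe. Its dimmer probe disagreed: it was lower in Sca1-low than in Sca1-high cells by 1.25 (EPO), 1.42 (IL-3/GM-CSF) and 0.83 (combined) on the log2 scale, where the brighter probe gave -0.11, -0.16 and 0.09. Insig2, one of the 2 proteins that hold SREBP back, was at 0.91 untreated, -0.11 and 0.60 with EPO, 1.09 and 1.08 with IL-3/GM-CSF, 0.70 and 0.33 with the combined treatment, and 0.56, 1.29 and 1.01 at day 6. Insig1, its partner and itself a target of SREBP, ran from -1.21 to -0.24, Scap from 3.83 to 4.65, and Stard4, a carrier that moves cholesterol between membranes, from 2.77 to 3.97.

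Sca1-low and Sca1-high cells of day 3 were compared in pairs, 1 for each treatment. With EPO 2 of 28 genes were at least 2-fold higher in Sca1-low cells (Fdft1 and Pmvk; 12.3% of all genes) and 0 lower (14.7%). With IL-3/GM-CSF it was 1 gene (Idi1; 9.27%) and 0 lower (13.9%), and with the combined treatment 2 genes (Fdft1 and Idi1; 11.8%) and 0 lower (12%). Fdft1 was 2.38-fold, 1.43-fold and 2.11-fold higher in the EPO, IL-3/GM-CSF and combined pairs, a mean difference of 0.95 (SE 0.24) with a limma adjusted p of 0.0782. Idi1 was 1.34-fold, 2.57-fold and 3.17-fold higher, with a mean of 1.15 (SE 0.31) and a limma adjusted p of 0.0882. Pmvk was 2.01-fold, 1.42-fold and 1.91-fold higher, with a mean of 0.81 (SE 0.22) and a limma adjusted p of 0.0871.

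These 3 genes were higher in Sca1-low cells in 3 of 3 pairs but missed the threshold. Testing only genes well above background on all 10 arrays brought all 3 below it (limma adjusted p of 0.0227 for Fdft1, 0.0218 for Idi1 and 0.0319 for Pmvk). Leaving out the EPO pair did so for Idi1 (1.51, limma adjusted p 0.0202). Calls over all genes rose too, from 1573 to 2425 with that filter and to 2305 without the EPO pair. Over all alternatives the limma adjusted p ran from 0.0227 to 0.383 for Fdft1, from 0.0202 to 0.399 for Idi1 and from 0.0319 to 0.436 for Pmvk, with the sign kept. After normexp background correction and quantile normalization, Fdft1 (0.79, limma adjusted p 0.037) and Scd2 (-0.86, limma adjusted p 0.0257) passed, and 2204 of all genes did.

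For 5 of 28 genes, namely Fdft1, Idi1, Pmvk, Sc5d and Stard4, all 3 Sca1-low arrays lay above all 3 Sca1-high arrays, where 21.4% of all genes did so. For 0 of 28 genes they lay below without overlap, where 14.4% of all genes did. Counting only the sign within pairs, 9 genes were higher in all 3 pairs (these 5 with Dhcr7, Insig1, Lss and Nsdhl; 34% of all genes) and 2 lower (Hmgcs1 and Scd2; 21%). These shares lie near or below those of all genes. Normalization moved the medians of all genes in this comparison, from 0.17 to 0.05 with quantile normalization. By the probes used, Fdft1 and Stard4 were the genes whose fractions did not overlap under each of the 3 other scalings. By a second Stard4 probe, well above background on all 10 arrays, the fractions overlapped (0.53 to 1.11 in Sca1-low against -0.01 to 0.91 in Sca1-high cells). Its IL-3/GM-CSF pair differed by 0.005.

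The median of the mevalonate steps was 0.07 in this comparison with 4 of 7 genes above 0, that of the squalene and lanosterol steps 0.48 with 3 of 3, that of the later sterol steps 0.25 with 7 of 8, that of the regulators and Stard4 0.00 with 3 of 6, and that of the fatty acid steps -0.09 with 0 of 4. Over all tested genes the median was 0.17.

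**Figure D3:**
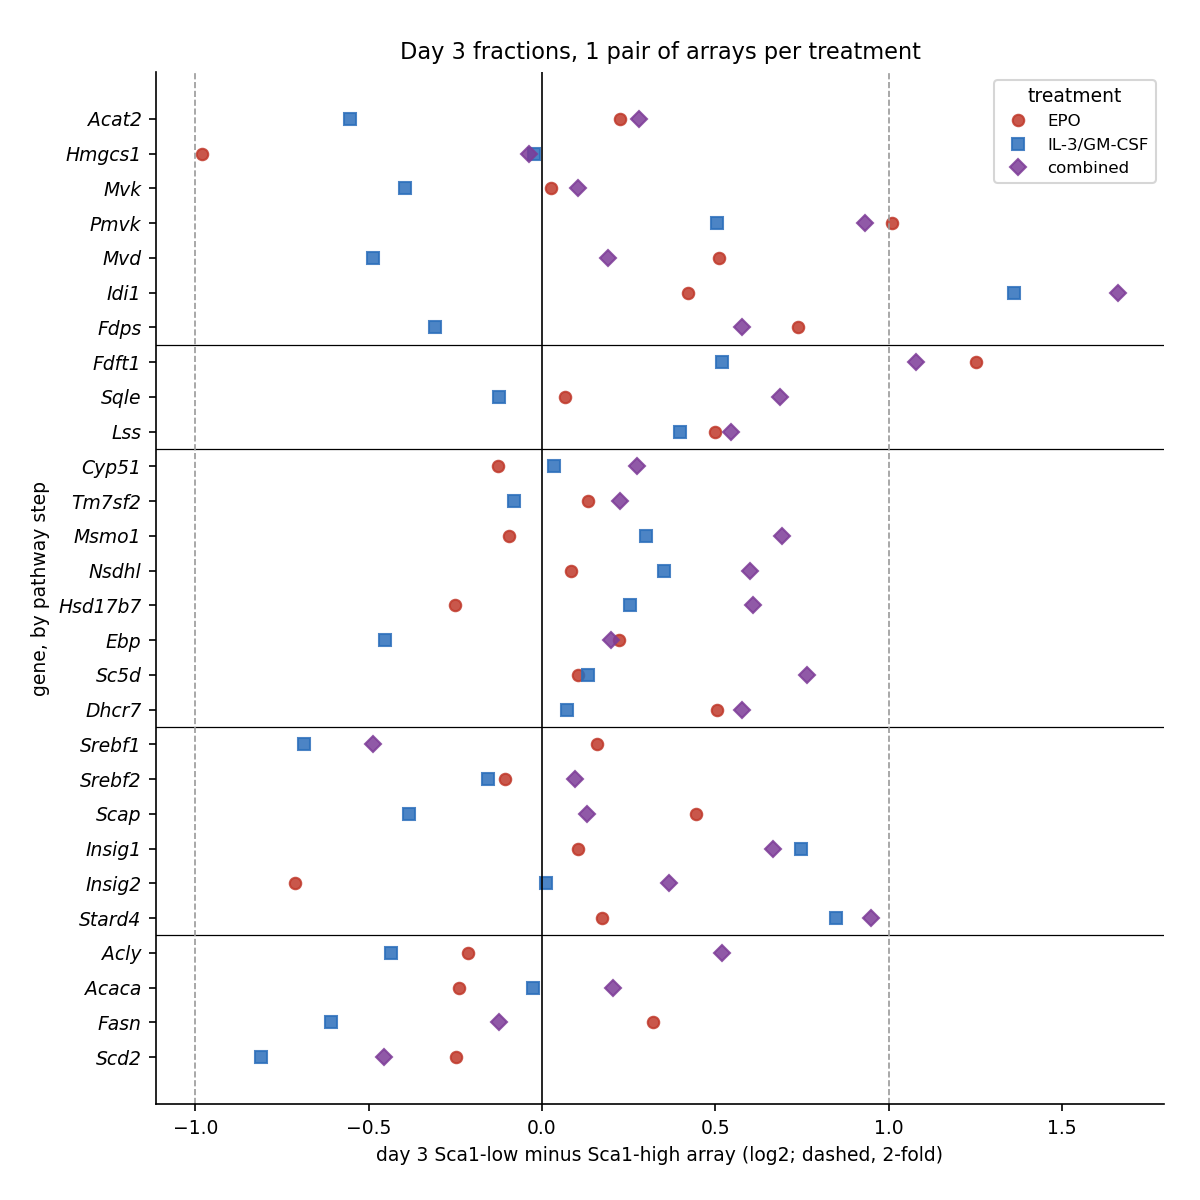
Difference in log2 level between the Sca1-low and the Sca1-high array of day 3 (horizontal axis) for the 28 genes in pathway order (vertical axis), with 1 point per treatment (red circle, EPO; blue square, IL-3/GM-CSF; purple diamond, combined) and dashed lines at 2-fold. Fdft1, Pmvk, Idi1, Lss and Stard4 have all 3 points to the right of 0, and Scd2 has all 3 to the left.

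Cell type markers moved with the same arrays. The log2 of the summed signal of 7 measured erythroid markers was 8.44 to 9.53 in the 3 Sca1-low fractions and 9.99 in EPO cells at day 6, against 4.93 to 5.63 in the Sca1-high fractions, 3.97 in untreated cells, 1.43 in IL-3/GM-CSF cells at day 6 and 4.63 in combined cells at day 6. All 7 passed the test as higher in Sca1-low cells, among them Klf1, a transcription factor of red cells (4.18, SE 0.33, limma adjusted p 0.00645). The sum of 5 progenitor markers was 4.54 to 4.79 in Sca1-low fractions and 6.40 to 7.67 in Sca1-high fractions, and that of 4 mast cell markers 1.51 to 2.94 against 7.15 to 8.41. Such sums follow their brightest genes, and the progenitor list holds Ly6a, on whose product the cells were divided. Cd34 also fell by the test, but Kit (-1.14), Gata2 (-0.22) and Flt3 (0.34) were not called. Of the mast cell markers Cpa3 and Mcpt8 fell by the test, and Fcer1a (-2.06) and Ms4a2 (0.28) were not called. The sum of 8 neutrophil and monocyte markers was 5.14 to 7.06 against 8.09 to 8.73, and 3 of them fell by the test (Mpo, Cebpe and Lyz2). The sum of 8 proliferation genes differed less, at 8.60 to 8.80 against 8.09 to 8.51. Megakaryocyte markers (3 genes) had sums of 5.02 to 6.62 against 4.43 to 6.13, and B and T cell markers (3 genes) 1.12 to 2.48 against 0.99 to 1.61. The part of any of these in the values of Fdft1, Idi1 and Pmvk was not tested.

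Among the fatty acid genes, Acaca and Scd2 were separated by treatment. Acaca, acetyl-CoA carboxylase, which makes the malonyl-CoA from which fatty acids are built, was at 2.69 untreated, 2.37 and 2.61 in the EPO fractions, 3.87 and 3.89 in the IL-3/GM-CSF fractions, 3.87 and 3.66 in the combined fractions, and at day 6 it was 2.86 with EPO, 4.12 with IL-3/GM-CSF and 4.04 with both. The 6 arrays of cultures with IL-3 and ATRA lay between 3.66 and 4.12, and the 4 without between 2.37 and 2.86. Scd2, a desaturase like Scd1, was at 4.75 untreated, 5.00 and 5.25 with EPO, 5.64 and 6.44 with IL-3/GM-CSF, 5.76 and 6.21 with the combined treatment, and 5.21, 6.74 and 6.35 at day 6. Its 6 arrays with IL-3 and ATRA lay between 5.64 and 6.74 and the other 4 between 4.75 and 5.25.

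These were the 2 of 28 genes without overlap between arrays with and without IL-3 and ATRA, and both were higher with them, where 1.53% of all genes were. None of the 28 was lower without overlap, where 2.37% of all genes were. Both genes kept this under the 3 other scalings. EPO cells had 1.35 less Acaca on the log2 scale than IL-3/GM-CSF cells (SE 0.19, limma adjusted p 0.132) and 1.12 less Scd2 (SE 0.23, limma adjusted p 0.177), lower in 3 of 3 populations for both. Within 1 slide, at day 3, Acaca was 2.83-fold (Sca1-low) and 2.44-fold (Sca1-high) lower with EPO, and Scd2 1.55-fold and 2.29-fold lower. Combined cells differed from EPO cells by 1.25 for Acaca (SE 0.19, limma adjusted p 0.115) and 0.95 for Scd2 (SE 0.23, limma adjusted p 0.15), and on the slide that held both day 6 arrays by 2.27-fold and 2.21-fold. Between the combined treatment and IL-3/GM-CSF none of the 28 genes had an unadjusted p below 0.05 by limma, and their differences lay between -0.47 and 0.21.

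Acly, which cleaves citrate to acetyl-CoA, ran from 4.96 to 6.02, and Fasn, fatty acid synthase itself, from -0.98 to -0.08. For both, the 6 arrays with IL-3 and ATRA overlapped the other 4. Between EPO and IL-3/GM-CSF cells they differed in the direction of Acaca but by less, -0.25 for Acly and -0.33 for Fasn. There 0 of 4 tested fatty acid genes had a difference above 0 (median -0.73), none of them called. Combined cells differed from EPO cells by -0.12 for Acly and 0.17 for Fasn. The summed level of the 8 neutrophil and monocyte markers was 5.68 to 10.96 on the 6 arrays with IL-3 and ATRA and 4.84 to 8.61 on the other 4, and IL-3/GM-CSF Sca1-low cells, with 5.68, had an Acaca level of 3.87. Among the 8, S100a8, S100a9 and Itgam each lay higher on all 6 arrays than on the other 4, as did Acaca and 1.53% of all genes. Itgam, an integrin of myeloid cells, lay between 5.16 and 6.94 against 3.58 and 5.13. S100a8 and S100a9, granule proteins of neutrophils, were well above background on only 5 and 7 of the 10 arrays. Both entered the tested genes only through arrays with IL-3 and ATRA, so their lack of overlap was nearly fixed by the filter. The part of these markers in the values of Acaca and Scd2 was not tested.

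Of the sterol genes, 5 of 7 in the mevalonate steps, 3 of 3 in the squalene and lanosterol steps and 4 of 8 in the later steps had a difference above 0 between EPO and IL-3/GM-CSF cells, none of them called. EPO cells exceeded IL-3/GM-CSF cells by 0.86 for Lss (SE 0.24, limma adjusted p 0.21), 0.82 for Fdft1 (SE 0.26, limma adjusted p 0.217) and 0.70 for Pmvk (SE 0.21, limma adjusted p 0.215). Dhcr7 (0.66) and Nsdhl (0.52), the latter a dehydrogenase of the demethylation steps, completed the 5 genes higher at an unadjusted p below 0.05, and Acaca, Scd2, Srebf1 (-0.84) and Insig2 (-0.80) were the 4 lower. Against untreated cells EPO gave 1.34 for Fdft1 (SE 0.37), 1.12 for Pmvk (SE 0.30) and 0.87 for Lss (SE 0.34), each with a limma adjusted p of 0.461. Averaging all probes of a gene turned Fdft1 to -0.60 in this comparison; its second probe was well above background on the untreated array alone. IL-3/GM-CSF gave 1.52 for Scd2 (SE 0.33, limma adjusted p 0.574), 1.27 for Acaca (SE 0.27, limma adjusted p 0.574) and 1.1 for Mvd (SE 0.45, limma adjusted p 0.736), and Mvd turned to -0.47 with slide as a block. The combined treatment gave 1.36 for Scd2 (SE 0.33, limma adjusted p 0.742) and 1.17 for Acaca (SE 0.27, limma adjusted p 0.7).

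Between day 6 and the mean of the day 3 fractions, Lss differed by -0.85 (SE 0.21, limma adjusted p 0.39). Without the EPO day 6 array its difference was -1.09 and passed (limma adjusted p 0.0317, against 0.0317 to 0.877 over all alternatives), and it then rests on the day 6 cultures with GM-CSF. Acat2 (-0.67, SE 0.25), Dhcr7 (-0.46, SE 0.18) and Sc5d (0.67, SE 0.25) were the others with an unadjusted p below 0.05, and Acat2 turned to 0.34 with slide as a block. Their limma adjusted p-values were 0.484, 0.495 and 0.493.

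Genes that consume, export or sense the products of the pathway were grouped in 6 further lists. In the list of sterol efflux, esterification and LXR genes, 3 of 11 tested genes were higher on all 6 arrays with IL-3 and ATRA than on the other 4, where 1.53% of all genes were. These were Abca1, Abcg1 and Mylip. Abca1 entered the tested genes only through those 6 arrays, so its lack of overlap was nearly fixed by the filter. Abcg1 and Mylip were well above background on all 10. Abca1, a pump that loads cholesterol onto apolipoprotein, was well above background on those 6 arrays alone, where it lay between -2.15 and -0.44, and was at least 5.95-fold (IL-3/GM-CSF day 6) to at least 19.4-fold (IL-3/GM-CSF Sca1-low) above untreated cells. Abcg1, a pump that loads cholesterol onto high-density lipoprotein, lay between 3.70 and 4.10 on those arrays and between 1.05 and 2.63 on the others. Mylip, an LXR-induced ubiquitin ligase, lay between 0.60 and 1.75 against -0.93 and 0.15. Rxra, the retinoid X receptor, was the 1 gene of the list that was lower without overlap (-4.42 to -2.35 against -1.99 to -1.08), where 2.37% of all genes were. None of the 4 passed the test between EPO and IL-3/GM-CSF cells, with limma adjusted p-values of 0.132 for Abca1 and Mylip, 0.136 for Abcg1 and 0.166 for Rxra. The list also held genes that fell in Sca1-low cells: Soat1, which esterifies cholesterol for storage (a fitted difference of -2.70 that uses a signal near background on the EPO Sca1-low array, SE 0.48, limma adjusted p 0.0352), Npc2, which hands cholesterol out of lysosomes (-1.18, SE 0.23, limma adjusted p 0.0456), and Apoe, an apolipoprotein (-1.22, SE 0.21, limma adjusted p 0.0342). These were 3 called genes of 11, against 11.1% of all genes.

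Apoe was at 4.59 untreated, 3.46 and 4.76 in the EPO fractions, 2.30 and 3.26 with IL-3/GM-CSF, 1.86 and 3.27 with the combined treatment, and 1.20, 0.46 and 0.89 at day 6, so that all 3 day 6 arrays lay below all others. On the EPO Sca1-low and EPO day 6 arrays Soat1 was not well above background, and its highest level was 0.74, in IL-3/GM-CSF cells at day 6. It was at least 15.7-fold lower in Sca1-low than in Sca1-high cells with EPO, 3.26-fold lower with IL-3/GM-CSF and 5.36-fold lower with the combined treatment.

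**Figure D4:**
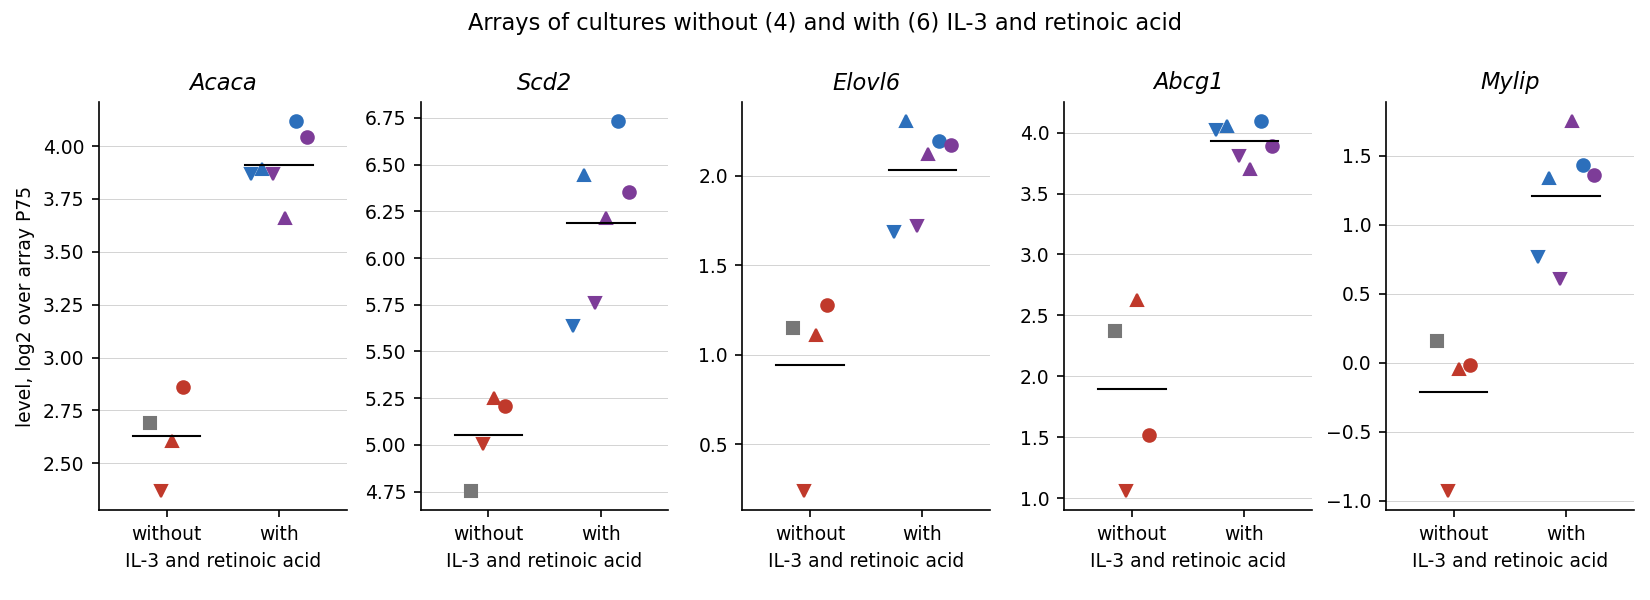
Level (log2 over the array's 75th percentile, vertical axis, own scale for each gene) of 5 genes on the 4 arrays without and the 6 arrays with IL-3 and ATRA (horizontal axis); colours and symbols stand for treatment and population as in the plot of levels by array, and black lines are group means. Acaca, Scd2, Elovl6, Abcg1 and Mylip each have their 6 points above the other 4.

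Among 9 tested genes of fatty acid elongation and desaturation, 1 was higher without overlap on the 6 arrays, where 1.53% of all genes were. This was Elovl6, which lengthens palmitate to stearate (1.69 to 2.31 against 0.24 to 1.28). Acss2, which makes acetyl-CoA from acetate, was the 1 that was lower (1.99 to 4.05 against 4.23 to 4.98), where 2.37% of all genes were. Elovl5, an elongase of polyunsaturated fatty acids, ran from 1.62 in EPO Sca1-low cells to 4.71 in IL-3/GM-CSF cells at day 6. It fell in Sca1-low cells (-1.47, SE 0.26, limma adjusted p 0.0357) and was the 1 gene of 9 called there, against 11.1% of all genes. Slc25a1, the citrate carrier of mitochondria, ran from 2.77 in IL-3/GM-CSF cells at day 6 to 4.88 in EPO Sca1-low cells.

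Among 12 genes of fatty acid oxidation 2 rose in Sca1-low cells and 0 fell, where 11.1% of all genes were called in either direction. These were Acaa2, the last thiolase of the mitochondrial cycle (1.42, SE 0.23, limma adjusted p 0.0291), and Cpt2, which frees fatty acids from carnitine inside mitochondria (1.14, SE 0.22, limma adjusted p 0.0435). Acaa2 ran from 4.56 to 6.78, Cpt2 from 3.82 to 5.45 and Acadvl, a dehydrogenase of long chains, from 4.25 to 6.13. Without overlap, 5 of the 12 (Cpt2, Acadvl, Hadhb, Etfdh and Acaa2) lay higher in Sca1-low cells, against 21.4% of all genes, and 1 lay lower, against 14.4%. That 1 was Cpt1a, which loads fatty acids onto carnitine (3.52 to 3.76 against 4.42 to 4.60), with a limma adjusted p of 0.0642.

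The isoprenoid branch uses farnesyl diphosphate for protein prenylation, dolichol and ubiquinone. All 11 of its genes had a mean difference above 0 between Sca1-low and Sca1-high cells, with a median of 0.53 against 0.17 for all genes, and 7 of 11 lay higher in Sca1-low cells without overlap, where 21.4% of all genes did. By the test 1 of the 11 was called, where 11.1% of all genes were called in either direction. This was Rabggtb, a subunit of the transferase that prenylates Rab proteins, which rose (1.07, SE 0.21, limma adjusted p 0.0443). It lay at 2.88 to 2.96 in Sca1-low and 1.59 to 2.02 in Sca1-high cells, with its highest level, 3.31, in EPO cells at day 6. Dhdds, of the dolichol branch, ran from 0.87 to 2.52, and Fntb, a subunit of farnesyltransferase, from -2.38 to -0.71.

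Of 8 genes that process SREBP or degrade its controllers, 0 were called in any of the 8 comparisons. Mbtps2, the protease that makes the second cut in SREBP, ran from -2.69 (EPO Sca1-low) to -1.17 (IL-3/GM-CSF day 6), Ubxn8 from -0.40 to 0.97, and Spring1, which supports the first protease, from -3.56 to -2.31. Of 6 other genes linked to SREBP, 0 were called as well. Without overlap, 2 of the 6 (Rdh11 and Lpin1) lay higher in Sca1-low cells, against 21.4% of all genes, and 0 lay lower, against 14.4%. Rdh11, a retinal reductase, ran from 1.76 to 3.77 (2.90 to 3.77 in Sca1-low against 1.76 to 2.54 in Sca1-high cells). Lpin1, a phosphatase of lipid synthesis, ran from -1.63 (combined day 6) to 0.69 (EPO day 6), and Aacs, which activates acetoacetate, from 1.47 (EPO day 6) to 3.57 (IL-3/GM-CSF day 6).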

How the data were processed

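RNA of 10 EML-C1 samples was measured on 1-colour mouse expression arrays. Spot intensities were deposited as scanner output of Agilent Feature Extraction 11.0.1.1, per the file headers, and the value table of the series repeated them without difference. The log2 of the processed intensity minus its array's 75th percentile was used, since the authors deposited intensity values without scaling between arrays. Spots marked as non-uniform or population outliers were set to missing, repeat spots were averaged, and the brightest probe stood for a gene with several (11 of the 29 genes). RefSeq accessions were matched to symbols.

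Genes were tested with limma 3.58.1 (R 4.3.3) and Benjamini-Hochberg adjustment over 14204 genes. Sca1-low and Sca1-high arrays of day 3 were compared with treatment as a block (2 residual degrees of freedom). All other comparisons came from an additive model of treatment and population on 10 arrays (4 residual degrees of freedom), which takes their interaction as error. An Abca1 bound sets the brighter array against the higher of the dim probe's own level and the lowest level well above background on the dim array. The calculations were tested on simulated data. Duplicates named in the series' design were not analysed here.

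The genes and lists were chosen with earlier results of these data known. Values on each array are given for the 12 of the 28 genes with the largest ranges, and for the 3 genes with the largest range in other lists at least their extremes where well above background. The mean spot signal was not among the columns used, so normexp was run on the median signal. Other alternatives were quantile and median scaling, 2 filters, the mean of probes, outlier spots, slide as a block and leaving out arrays.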

Additional observations from a re-analysis of the deposited data

Results flagged for a closer look

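For 4 genes a probe that was not the one used stood at least 2-fold above the untreated array where the used probe did not. A dim Acaca probe was 3.40 above untreated on the log2 scale in EPO cells at day 6, where the used probe differed by 0.17. By this dim probe the EPO day 6 array lay above all 6 arrays with IL-3 and ATRA, unlike by the used probe. Another Acaca probe was 1.16 above untreated in combined Sca1-high cells. One Acly probe was 1.05 above untreated in IL-3/GM-CSF cells at day 6. A second Pmvk probe was 1.04 above untreated in combined Sca1-low cells, and a second Tm7sf2 probe was 1.18 above it in EPO Sca1-high cells. These probes entered the comparisons only where all probes of a gene were averaged as an alternative, and no replicate array bears on them.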

How the results depend on the processing

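Under 24 alternative settings, 141 of 145 counts of called genes among the 28 were 0. The exceptions were 2 (normexp with quantile normalization) and 3 (only genes well above background on all 10 arrays) for Sca1-low against Sca1-high cells, with 0 to 1 when a treatment pair was left out, and 0 to 1 for day 6 against day 3 when an array was left out (1 without EPO day 6). The filter on all 10 arrays meant fewer tests and also changed the SEs, for Idi1 from 0.31 to 0.27. The median difference of EPO against untreated cells, 0.30, became 0.13 with normexp, 0.13 with quantile normalization, 0.44 with median scaling and -0.07 with slide as a block, and 0.24 to 0.45 when arrays were left out. That of IL-3/GM-CSF, also 0.30, became 0.25, 0.35 and 0.12 with quantile normalization, median scaling and slide as a block, and 0.25 to 0.38 without single arrays. With slide as a block the median became 0.27 for combined against EPO cells (-0.18) and 0.36 for day 6 against day 3 (-0.03). Genes at least 2-fold above untreated, summed over 9 arrays, numbered 31, and 67 at 1.5-fold. Those 2-fold below numbered 1, and 2 with normexp, 2 with quantile normalization, 0 with median scaling, 5 with the mean of probes, 9 at 1.5-fold, and 0 to 1 without single arrays. Fdft1 turned to -0.60 (EPO against untreated, mean of probes), Mvd to -0.47 (IL-3/GM-CSF against untreated) and Acat2 to 0.34 (day 6 against day 3), the last 2 with slide as a block; the cause of the slide results was not tested.

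Counts over all genes depended more on the setting. For Sca1-low against Sca1-high cells they ran from 0 (all 10 arrays in 1 model, or without the IL-3/GM-CSF pair) over 464 (without the combined pair) to 2425 (genes above background on all arrays), around 1573. With slide as a block 1041 genes were called for EPO against untreated cells, 865 for combined against EPO cells and 655 for day 6 against day 3, and 789 for the last without EPO day 6. The largest counts were 293 and 63 for IL-3/GM-CSF and combined against untreated cells and 131 for EPO against IL-3/GM-CSF. Replicate numbers pair no arrays, since each condition has 1; the Sca1 fractions were paired by treatment.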
